A study of Mus musculus with 8 samples.

Results

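The middle of the mouse kappa light-chain locus holds a long run of variable (V) segments that belong mostly to the Vk4 family. They are described here as the kappa V genes whose position number, the number after the last hyphen of the name, lies between 49 and 92, without IGKV4-91. This rule gave 38 of the 135 light-chain V genes in the deposited coverage files. It works by names only, but it was chosen with earlier results of these data known. The 38 comprised 31 genes of family 4, 4 of family 12, 2 of family 13 and 1 of family 1, and 10 of them are annotated as pseudogenes. A further 4 genes annotated with a fitting name were in no coverage file used here. IGKV4-57-1 lies in the same interval but its last number is 1, so it is not a member.

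The libraries were made from poly-A RNA of pro-B cells, taken from the bone marrow of mice of 8 weeks by a sort for B220+, Cd43+, IgM- and CD25- cells. There were 4 control and 4 Setd2 knockout samples, untreated, with 1 sequencing batch for all of them. The labels name no Cre driver, allele, strain or animal for either group, so p-values measure only how these samples spread, and that spread may be technical. The comparison asks whether the use of these V genes differs between control pro-B cells and those without Setd2, an enzyme that trimethylates lysine 36 of histone H3.

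A kappa light chain is made when the RAG recombinase joins 1 Vk segment to 1 of the functional Jk segments, and a V segment that lies in the opposite orientation to Jk is joined by inversion, which keeps the DNA in between. A cell can replace a first join by joining a V farther out to a Jk farther downstream. Light-chain joining belongs mainly to the pre-B stage, after the pro-B stage that the sort was set for, and a poly-A library reads spliced and unspliced transcripts of the V segments in whichever cells carry them.

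The members lie on chromosome 6 of mm10, between 1005.61 and 1966.97 kb from Jk1. In the GENCODE annotation of that build, 37 of the 38 lie in inverse orientation to Jk and 1, IGKV13-84, in the same orientation. The 3′ ends of the V segments carry the part that a joined CDR3 keeps, and they show how far the members can be told apart. Each is printed with its last framework bases in lower case and the bases from the cysteine codon that opens CDR3 in capitals, as read from GENCODE transcripts, 5′ to 3′ on the coding strand.
IGKV4-59 (chr6:69438218-69438257, minus strand): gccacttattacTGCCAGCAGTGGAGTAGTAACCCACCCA
IGKV4-71 (chr6:69243158-69243199, minus strand): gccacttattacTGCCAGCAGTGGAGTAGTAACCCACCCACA
IGKV4-55 (chr6:69607275-69607314, minus strand): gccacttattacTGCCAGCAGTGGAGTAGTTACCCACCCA
IGKV4-74 (chr6:69184826-69184865, minus strand): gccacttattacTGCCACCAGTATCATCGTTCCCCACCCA
IGKV4-90 (chr6:68807179-68807218, minus strand): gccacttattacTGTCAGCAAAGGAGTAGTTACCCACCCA
IGKV13-85 (chr6:68930269-68930306, minus strand): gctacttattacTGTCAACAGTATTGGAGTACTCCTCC
IGKV1-88 (chr6:68862265-68862302, minus strand): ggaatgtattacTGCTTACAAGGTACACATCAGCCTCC
The capital part of IGKV4-59 is shared letter for letter by 4 members, the others being IGKV4-68, IGKV4-72 and IGKV4-73. IGKV13-84 and IGKV13-85 also share theirs. IGKV1-88 and the family 13 genes have ends of their own beside the Vk4 genes.

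Reads of one member can therefore fit another. Of all 75-base windows, the read length, of the IGKV4-59 transcript, 42.5% occur letter for letter in another V gene, and 10 Vk4 members share at least 1 such window with IGKV4-59. IGKV13-84 and IGKV13-85 share 43.6% of their windows with another V gene. The sources used here do not say how the authors' counting divided such reads, so the values of these genes are uncertain one by one.

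The samples held between 5956 and 144978 reads over the light-chain locus, both extremes being knockouts, and between 2085 (knockout 3) and 75449 (knockout 4) light V reads. Switched heavy-chain constant regions (IGHG, IGHA and IGHE), markers of B cells past the sorted stage, made up 51.0 to 57.6% of heavy constant reads in controls and 6.69 to 44.2% in knockouts, with no overlap. All 8 heavy constant regions counted, the unswitched IGHM and IGHD included, had reads in every sample, with as few as 1 for IGHE. IGHD, a marker of mature naive B cells, took 0.651 to 0.977% of heavy constant reads in controls and 0.467 to 0.759% in knockouts, which overlap. The lambda constant region took 2.32 to 4.09% of light constant reads in controls and 4.44 to 23.6% in knockouts. Lambda V genes took 2.51 to 5.54% of light V reads in controls and 3.98 to 9.40% in knockouts, which overlap. Knockout 3, at 23.6% by the constant region, had the 3.98%. The part of these cells in the results that follow was not tested, and fewer cells of a type and less RNA per cell cannot be told apart in bulk samples.

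The members' summed share of light V reads was similar in 7 of the 8 samples and much higher in knockout 4. Controls 1 to 4 had 12.4, 16.9, 17.3 and 13.7%. Knockouts 1 to 4, in that order, had 13.1, 14.5, 15.7 and 45.7%. Knockouts 1 to 3 lay inside the control range and knockout 4 far above it. The means were 15.1 ± 2.40% (SD, n = 4) and 22.3 ± 15.7% (SD, n = 4), a difference of 7.16 percentage points that became -0.667 without knockout 4, where the knockout mean was 14.4 ± 1.29% (SD, n = 3). In knockout 4 the V genes nearest Jk took 8.89% of light V reads, against a control mean of 39.8%. No test was made of a sum over the members.

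**Figure D1:**
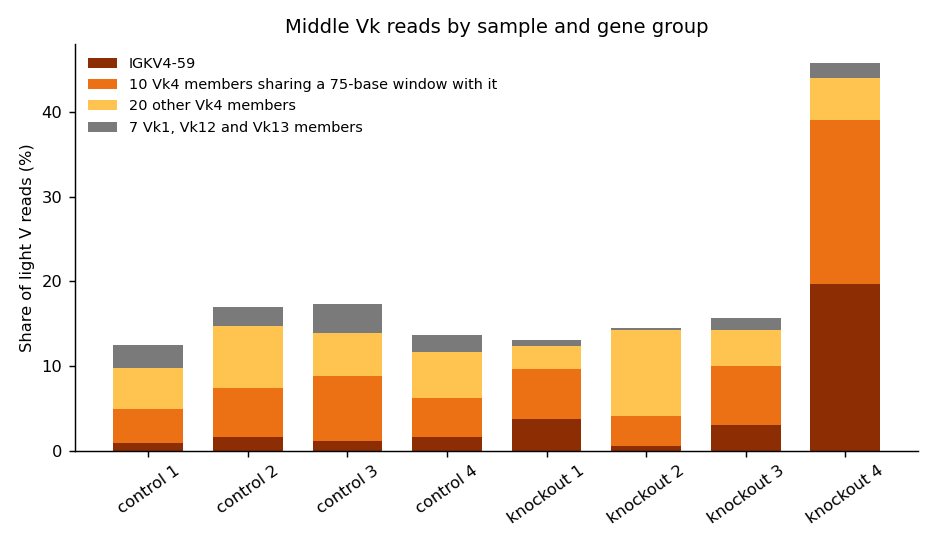
Share of light V reads (%) that fell on the 38 middle Vk genes in each of the 8 samples, as bars from 0 stacked by gene group. Knockout 4 reached 45.7%, of which IGKV4-59 and the 10 members that share a 75-base window with it made up 39.1%, while the other 7 samples lay between 12.4 and 17.3%.

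The reads of the members were spread over fewer genes in the knockouts. The effective number of members (the exponential of the entropy of their reads, which counts genes as if all were equally used) was 21.0, 19.9, 20.1 and 21.97 in the controls and 14.6, 10.9, 16.6 and 9.16 in the knockouts. Every knockout lay below every control, with means of 20.7 ± 0.939 and 12.8 ± 3.41 (SD, n = 4 each), and 14.0 in knockouts without knockout 4. The leading member took 9.95 to 12.7% of the member reads in controls and 19.0 to 43.0% in knockouts. The same held outside the middle of the locus: the effective number of the other light V genes was 37.8 in controls and 23.0 in knockouts, also with no overlap, so the narrowing was not particular to the members.

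The leading member differed between samples. In the controls it was IGKV13-84 (1.24% of light V reads), IGKV4-72 (1.88%), IGKV4-55 (2.20%) and IGKV4-59 (1.59%). In knockouts 1, 3 and 4 it was IGKV4-59 and in knockout 2 it was IGKV4-90. Shares are of reads and are not divided by segment length.

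Across genes, the quasi-likelihood test of edgeR (Benjamini-Hochberg adjusted) called 0 of the 35 members with at least 10 reads in all, against 0% (percent of the 113 light V genes tested). At an unadjusted p under 0.05 by the same test, 1 member was higher in knockouts (IGKV4-59; 2.65% of all genes tested) and 2 were lower (IGKV1-88 and IGKV4-83; 15.9% of all). DESeq2 called 4 members, all higher (IGKV4-59, IGKV4-69, IGKV4-71 and IGKV4-74), where 7.96% of all genes were called. For some members, among them IGKV4-54, IGKV4-55, IGKV4-61 and IGKV4-90, DESeq2 gave no adjusted p, so these could not be called. The median log2 fold change of the members was 0.06, with 18 higher and 17 lower, beside -0.64 over all genes, with 39 higher and 74 lower. Scaling moved this split: with TMM scaling the medians were 0.9995 and 0.15 and the members split 27 higher to 8 lower, and with DESeq2 they were 1.13 and 0.21 and split 28 to 7.

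IGKV4-59, annotated as a functional gene 1283.81 kb from Jk1, had the largest SD between knockouts of all members in percentage points. Its share was 0.957, 1.65, 1.08 and 1.59% in controls and 3.77, 0.581, 2.97 and 19.7% in knockouts. Knockouts 1, 3 and 4 were above every control, and knockout 2 was below every control. The means were 1.32 ± 0.350 and 6.75 ± 8.73% (SD, n = 4 each), and 2.44% in knockouts without knockout 4. The log2 fold change was 2.36 (SE 0.871), with 0.1597 as Benjamini-Hochberg adjusted p in the quasi-likelihood test of edgeR and 0.00778 by DESeq2. Without knockout 4 it was 0.88.

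The 10 Vk4 members that share a window with IGKV4-59 were also high in knockout 4. Of these 10 genes, 9 were above the highest control in knockout 4, against 4 of the 20 other Vk4 members. Among all light V genes 18.5% were above the highest control in that sample, and 14 of the 38 members were. The median ratio to the control mean was 4.26 for the 10 and 0.610 for the 20. In knockout 3 the counts were 6 of 10 and 6 of 20, in knockout 1 they were 3 and 2, and in knockout 2 they were 1 and 6. Below the lowest control were 15, 19, 13 and 11 of the 38 members in knockouts 1 to 4, where 48.9, 43, 34.8 and 54.1% of all light V genes were. The background shares above the highest control were 19.3, 16.3 and 15.6% in knockouts 3, 1 and 2. Whether reads of IGKV4-59 were divided among these genes was not tested.

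**Figure D2:**
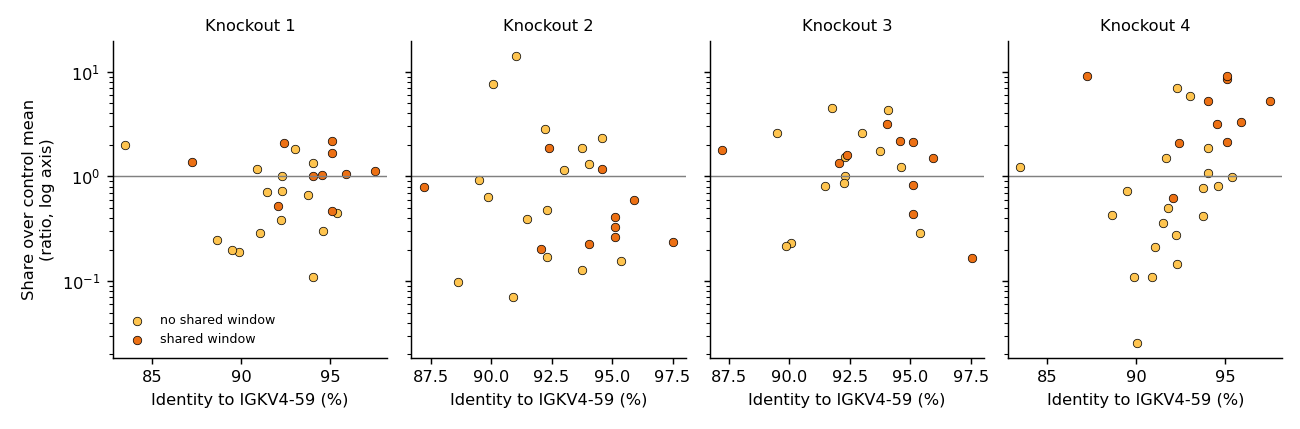
Share of light V reads in each knockout divided by the control mean (ratio, log axis) against identity to the IGKV4-59 transcript (%), 1 point per Vk4 member other than IGKV4-59 with reads in that sample, genes at 0 not drawn. In knockout 4 the median ratio was 4.26 for the members with a shared 75-base window and 0.610 for those without, and the horizontal line marks a ratio of 1.

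Among the members that share windows with it, IGKV4-68 stood at 0.775, 1.20, 1.57 and 0.959% in controls and 1.20, 0.671, 1.68 and 3.74% in knockouts, which overlap. IGKV4-71 was at 0.186 to 0.445% in controls and at 0.589, 0.115, 0.288 and 2.96% in knockouts, with a log2 fold change of 1.52 (SE 0.952) that became -0.07 without knockout 4. IGKV4-70 likewise ranged from 0.420 to 0.860% in controls and was 3.02% in knockout 4, but 0.658, 0.137 and 0.0959% in the other knockouts. For all 3 genes the highest value was in knockout 4, and knockouts 1 to 3 had values within or below the control range except IGKV4-68 in knockout 3 and IGKV4-71 in knockout 1. IGKV4-61, which also shares windows with IGKV4-59, was at 0.577 to 0.954% in controls and 0.782, 0.885, 1.63 and 2.41% in knockouts. Its log2 fold change was 0.92 (SE 0.653), 2.17 with TMM scaling and 0.52 without knockout 4.

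IGKV4-74 was the only member, and the only one of the 135 light V genes (0.741%), with every knockout above every control. Its share was 0.710, 0.379, 0.610 and 0.585% in controls and 1.20, 1.08, 0.911 and 1.20% in knockouts. The means were 0.571 ± 0.139 and 1.10 ± 0.135% (SD, n = 4 each). The log2 fold change was 0.94 (SE 0.625) and the Benjamini-Hochberg adjusted p was 0.419 in the quasi-likelihood test of edgeR and 0.0408 by DESeq2. It kept its direction without knockout 4, at 0.90. It is one of the 10 members that share a window with IGKV4-59, and 26.6% of its windows occur in another V gene. The other 2 genes that DESeq2 called beside IGKV4-59, IGKV4-69 and IGKV4-71, are also among those 10.

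IGKV4-90, near the far end of the interval, owed its knockout mean to 1 sample. Its share was 0.703, 1.04, 0.417 and 0.352% in controls and 0, 4.80, 0.144 and 0.0159% in knockouts. Knockout 2 was above every control and the other 3 knockouts were below every control. The 0 of 27506 light V reads in knockout 1 allows a share of up to 0.0109% (3 reads, counting error only), and knockout 3 had 3 reads of 2085. The log2 fold change was 0.99 (SE 1.53) and became -4.58 without knockout 2.

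As in Vk4, no member of families 1, 12 or 13 passed the quasi-likelihood test of edgeR. IGKV1-88, the one family 1 member, was at 0.177, 0.372, 0.384 and 0.398% in controls and 0.00364, 0.0727, 0.0480 and 0.0782% in knockouts. All knockouts were below all controls, as held for 3 of the 38 members and 16.3% of all light V genes. The log2 fold change was -2.69 (SE 0.960), with 0.143 as Benjamini-Hochberg adjusted p in the quasi-likelihood test of edgeR, so the difference did not pass. It shares no 75-base window with another V gene.

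IGKV13-85 was at 0.995, 0.984, 1.63 and 0.747% in controls and 0.185, 0.0684, 0.624 and 0.579% in knockouts, again without overlap. Its log2 fold change was -1.61 (SE 0.815; Benjamini-Hochberg adjusted p = 0.314 in the quasi-likelihood test of edgeR). It was -0.39 with TMM scaling and -0.50 with DESeq2. IGKV13-84, the one member that joins by deletion, overlapped, at 0.749 to 1.26% in controls and 0.273, 0.0898, 0.767 and 1.06% in knockouts. The 2 genes share windows, and their sum was 2.12 ± 0.598% in controls and 0.913 ± 0.716% in knockouts (SD, n = 4 each). The log2 fold change of IGKV13-84 was -0.92 and turned to 0.43 with TMM scaling and 0.29 with DESeq2. The third member without overlap was the pseudogene IGKV4-83, at 0.0247 to 0.0628% in controls and 0 to 0.0186% in knockouts.

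The remaining members gave smaller or less even values. IGKV4-69, which shares windows with IGKV4-59, was at 0.108 to 0.197% in controls and 0.345, 0.0641, 0.336 and 1.44% in knockouts, so 3 knockouts lay above the controls and knockout 2 below them. IGKV4-54, which shares none with IGKV4-59, was at 0.0628 to 0.0919% in controls and 0.135, 0.0855, 0.192 and 0.439% in knockouts. IGKV4-58 was at 0.672, 1.16, 0.274 and 0.587% in controls and 0.127, 0.427, 0.144 and 0.0742% in knockouts, lower on average but overlapping. Of the 38 members, 24 had reads in all 8 samples and 3 (the family 12 pseudogenes IGKV12-49, IGKV12-66 and IGKV12-67) had fewer than 10 reads over all samples and were not tested. The 10 pseudogenes together held 0.162 to 0.485% of light V reads in a sample.

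**Figure D3:**
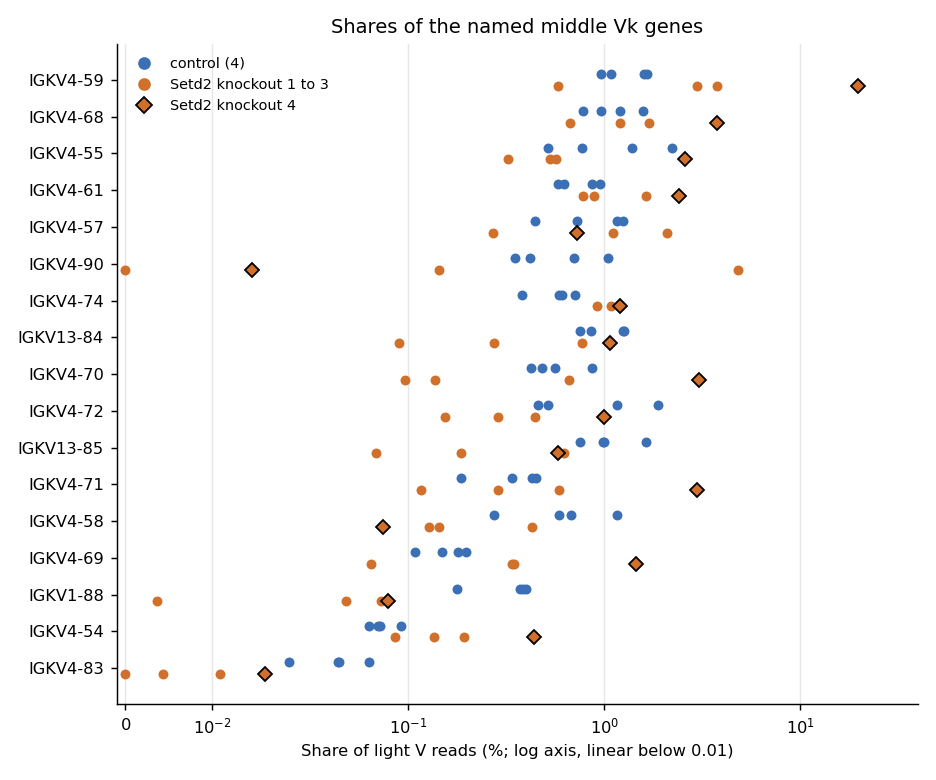
Share of light V reads (%, log axis that is linear below 0.01) of the 17 named members in each sample, 1 point per sample, with knockout 4 as an outlined diamond. IGKV4-74 has all knockouts to the right of all controls, IGKV1-88, IGKV13-85 and IGKV4-83 have them all to the left, and the other rows overlap.

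The assembled contigs give a second view, by distinct joined sequences. A clonotype is here a distinct complete CDR3 sequence of a sample, and 209 of 2985 kappa clonotypes listed only genes that fit the name rule, 156 in controls and 53 in knockouts. Contigs also list IGKV4-52 and IGKV13-82, which fit the name rule but are in no coverage file used here. Of the 209, 131 listed a single gene, over 15 genes, led by IGKV1-88 with 23 clonotypes (19 in controls, 4 in knockouts) and IGKV4-86 with 18. Controls held more kappa clonotypes as a whole, with a mean of 594 per sample against 152 in knockouts. A further 78 listed several genes. In 20 of 200 clonotypes with a value (10%), an unlisted V gene matched CDR3 over at least 10 more bases than any listed gene. Among them were 7 of the 10 listed as IGKV13-85 and all 6 listed as IGKV4-75. The same held for 61 of 2673 other kappa clonotypes (2.28%). For some the better match lay outside the middle genes. Some clonotypes counted as middle Vk may therefore be of other genes, and the comparisons of clonotypes below carry that uncertainty.

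By clonotypes too knockout 4 was highest, by a smaller margin than by segment reads. The share was 6.07, 6.37, 6.95 and 6.85% of kappa clonotypes in controls and 6.99, 7.19, 5.13 and 11.9% in knockouts, from 31, 43, 36 and 46 and from 10, 11, 4 and 28 clonotypes. In knockout 4 the share was 14.2% when clonotypes were weighted by reads that span CDR3, against 45.7% of segment reads. Control means were 8.10 and 15.1%. These measures are not alike: the CDR3 share leaves out clonotypes that also list other genes, and its total holds kappa clonotypes only. Clonotypes that list any member, alone or beside other genes, held 27.9% of CDR3-spanning reads in knockout 4 and 21.4 to 25.6% in controls. Clonotypes that list IGKV4-59, in every case beside other genes, held 10.9, 13.5, 12.4 and 11.4% of CDR3-spanning reads in controls and 18.4, 10.7, 20.2 and 16.5% in knockouts. Knockouts 1, 3 and 4 were above every control and knockout 2 below every control, as held for the IGKV4-59 segment reads. No clonotype listed IGKV4-59 alone, so these CDR3-spanning reads cannot be assigned to that gene. The largest middle Vk clonotype of knockout 4 had 13 of 838 such reads.

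**Figure D4:**
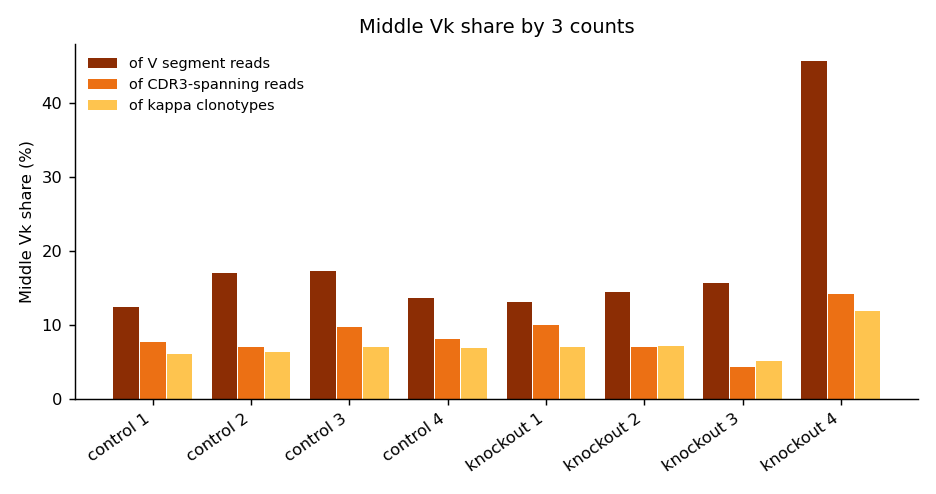
Share (%) of the middle Vk genes in each sample by V segment reads, by CDR3-spanning reads of clonotypes that list only these genes, and by number of clonotypes, as bars from 0. In knockout 4 the 3 measures gave 45.7, 14.2 and 11.9%.

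Joined sequences recurred between samples. Among 173 distinct middle Vk CDR3 sequences 25 were found in more than 1 sample, 14 of them in both groups. The 4 below were chosen after their values were seen, as examples among those that recurred in 3 or 4 samples, with the bases that match the germline V end in capitals and the rest in lower case.
IGKV4-57 with IGKV4-55 or IGKV4-72 listed, in 4 samples: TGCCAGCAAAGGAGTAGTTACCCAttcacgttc
IGKV1-88, in all 4 controls: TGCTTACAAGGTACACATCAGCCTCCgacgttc
IGKV4-59 and 9 other genes listed, in 3 controls: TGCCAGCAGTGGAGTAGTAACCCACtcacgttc
IGKV4-58 or IGKV4-51, in 1 control and 2 knockouts: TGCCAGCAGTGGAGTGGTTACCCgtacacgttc
In all 4 the V end and the Jk end together account for every base, by the closest of the listings of that sequence. As listed in control 3, with IGKV4-72 and Jk2, the first sequence left 18 bases unmatched. Every base was accounted for in 20 of the 25 recurring sequences and in 35 of the 139 others that had a value. A recurring sequence takes the lowest value over its listings, so these counts are not a like comparison.

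Use of the downstream Jk4 and Jk5 segments did not separate the groups. Their share of middle Vk clonotypes with a single listed Jk was 40, 34.1, 28.6 and 39.5% in controls and 50.0, 27.3, 25.0 and 42.3% in knockouts, and the groups overlapped. Some recurring CDR3 sequences were listed with different Jk genes in different samples, such as Jk2 and Jk4, so these shares carry that uncertainty. The means were 35.6 ± 5.37 and 36.1 ± 12.01% (SD, n = 4 each; two-sided exact permutation p = 0.914, the same after adjustment over the 4 planned clonotype tests). Against the other kappa clonotypes of the same sample the share was 0.498 points higher, in 5 of 8 samples (two-sided exact sign-flip permutation p = 0.836). The size changed with the choice of contigs. With contigs that list a member first the difference was 10.4 points (unadjusted exact permutation p = 0.0156). With contigs of all interval genes, an alternative chosen after seeing the data, it was 8.68 points (unadjusted exact permutation p = 0.0391).

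CDR3 length was close in both groups. Controls averaged 11.1 ± 0.132 amino acids and knockouts 10.98 ± 0.262 (SD, n = 4 each; two-sided exact permutation p = 0.314). The difference from other kappa clonotypes was -0.0434 amino acids (two-sided exact sign-flip permutation p = 0.609).

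Other features of the junctions were examined after their values had been seen. In all, 10 clonotype measures were inspected per sample and 10 tests run, of which 4 were planned and 6 added, so the p-values of the added tests are those of patterns already noticed and none passed after adjustment over the 10. The codon TGG, which the germline Jk1 end supplies, was present in 16 of 59 middle Vk clonotypes listed with Jk1 (27.1%) and in 440 of 791 others (55.6%). The Jk is the one listed for the contig and was not checked against the CDR3 for this count. The middle share was lower in 6 of the 7 samples that had middle Vk clonotypes listed with Jk1, by a mean of 31.8 points (difference -31.8; exact sign-flip permutation p = 0.0312). Knockouts 2, 3 and 4 had only 4, 1 and 5 such clonotypes. The largest difference, -70.8 points, came from the 1 clonotype of knockout 3. The adjusted p of this test was 0.219 over the first 7 tests and 0.104 once 3 more had been added, a fall that comes from the added tests alone.

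Those last 3 concerned junctions in which the ends of a listed V and the listed Jk account for every base. Such junctions made up 50.0, 26.8, 42.9 and 37.2% of middle Vk clonotypes in controls and 50.0, 36.4, 50.0 and 34.6% in knockouts, which overlap. Among the other kappa clonotypes they made up 33.9, 26.0, 25.9 and 26.9% in controls and 69.0, 44.1, 69.0 and 40.4% in knockouts, which do not. Middle minus other was positive in the 4 controls and negative in the 4 knockouts, a change of -24.0 points (exact permutation p = 0.0286, the smallest that 4 against 4 allow; adjusted p = 0.104 over the 10 tests). When each junction was matched to any kappa V gene in place of the listed ones, 1 control and 1 knockout left this order and the change was -21.6 points (exact permutation p = 0.0571). With clonotypes of at least 2 reads it was -11.95 points (exact permutation p = 0.314). The samples with more such junctions outside the middle genes, the knockouts, are those with the lower share of switched constant regions, and the part of that was not tested.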

How the data were processed

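Reads were aligned with STAR 2.5.1 to mm10, per the submitters' processing notes, and repertoires came from TRUST (version not given in the sources used here), per the series design text. The authors deposited read counts per light-chain segment, without normalization. Contig tables hold a read count per contig, as deposited, and an expression score per clonotype, as deposited by the authors, which times the CDR3 length (at least 39 bases) gave whole CDR3-spanning reads within 0.01. Shares are percent of light V reads.

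Counts of light V genes with at least 10 reads in all were fitted with edgeR 4.0.16 (quasi-likelihood). Library size was the light V total and the threshold 0.05. The SE of a log2 fold change is its absolute value divided by the square root of the test's F statistic. It thus comes from the same test as the p-value. The fit was also run on simulated counts with the same relative spread for every gene and no outlying sample. Such counts cannot show how it performs on knockouts as uneven as these. DESeq2 1.42.0, TMM scaling, other filters, a replicate block and each replicate left out were alternatives. An adjusted p that DESeq2 left empty stayed empty. Other tests were exact permutations (scipy 1.17.1), and 6 of the 10 clonotype tests were added after values had been seen. Members and lists were chosen with earlier results of these data known. Named are the 12 members with the highest mean share, any past the threshold, the 3 of lowest p in each direction and each sample's leading member; IGKV4-51, IGKV4-52, IGKV4-73, IGKV4-75, IGKV4-86, IGKV13-82 and the untested pseudogenes were named after their values were seen. Germline ends came from GENCODE transcripts of the same build. Intervals and limits of a count of 0 cover counting error only. Heavy-chain contigs were not used here.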

Additional observations from a re-analysis of the deposited data

Results flagged for a closer look

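Of 44 groups of 4 samples checked, 6 held 1 sample far from the other 3; chance flags about 1 in 20 groups. Knockout 4 stood apart in 4 of them, with 45.7% for the members' summed share (next highest knockout 15.7%), 19.7% for IGKV4-59 (next 3.77%), 2.96% for IGKV4-71 (next 0.589%) and 2.58% for IGKV4-55 (next 0.567%). Knockout 2 stood apart for IGKV4-90, at 4.80% beside a next value of 0.144%. Control 1 was low for IGKV1-88, at 0.177% beside 0.372%.

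The share of fully matched junctions, middle minus other, is listed because its change of -24.0 points put the 4 controls and the 4 knockouts on opposite sides of 0. It was tested after it had been noticed, did not pass after adjustment over 10 tests (adjusted p = 0.104, exact permutation), and the order of the samples was not kept when junctions were matched to any kappa V gene.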

How the results depend on the processing

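The count of members called was 0 under every edgeR setting run, including the replicate block and each replicate left out, and 4 with DESeq2. The read share difference turned to -1.68 points without IGKV4-59 and the members sharing a window with it, and ranged from -0.667 to 10.2 with 1 replicate left out. The effective number differed by -4.89 without IGKV4-59, the member with the highest mean share, and by -2.96 without the window-sharing members (-9.19 to -6.70 with 1 replicate left out). With 1 replicate left out, the clonotype share difference ranged from -0.121 to 2.14, downstream Jk from -4.04 to 4.30, CDR3 length from -0.290 to -0.0881, downstream Jk against other clonotypes from -1.51 to 2.95, and CDR3 length against others from -0.0758 to 0.00927. Downstream Jk against others had an unadjusted exact permutation p under the threshold at 10.4 with a member listed first and at 8.68 with interval contigs (chosen after seeing the data). CDR3 length against others turned to 0.0318 (member listed first), 0.00920 (at least 2 reads) and 0.00882 (interval contigs). The fully matched junction change, which did not pass after adjustment, also lost its unadjusted exact permutation p under the threshold when weighted by reads (-15.1), with at least 2 reads (-11.95), matched to any V gene (-21.6), or with any 1 replicate left out (-27.4 to -21.9), where 3 against 4 samples cannot go below an exact permutation p of 0.0571.

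Replicate numbers are shared by both groups, but the labels name no animal, so whether they mark pairs is not known. The 4 same-numbered pairs correlated at 0.145, -0.0551, 0.113 and 0.0775, and different-numbered pairs at -0.250 to 0.207. These few correlations cannot decide it, and the groups were treated as unpaired. With the replicate block, IGKV4-57 turned to -0.013, IGKV4-90 to -3.00 and IGKV4-70 to -0.45 on the log2 scale, the downstream Jk difference was 0.582 (exact permutation p = 1), and the matched junction change was -24.0 (exact permutation p = 0.125, the smallest that 4 pairs allow).

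On the log2 scale, TMM scaling and DESeq2 turned IGKV4-55 to 1.33 and 1.20, IGKV13-84 to 0.43 and 0.29, and IGKV4-72 to 0.40 and 0.27. With 1 replicate left out, IGKV4-55 ranged from -1.37 to 0.18, IGKV4-57 from -0.39 to 0.55, IGKV4-90 from -4.58 to 1.41, IGKV4-70 from -0.90 to 1.14 and IGKV4-71 from -0.067 to 1.89. The cause was not tested. Knockout 3, with 327 member reads and 4 middle Vk clonotypes, limits what its shares can show.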
